A study of Mus musculus with 8 samples.

Results

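The genes that code for ATP-dependent chromatin remodelers were followed in mouse hepatoma cells exposed to hexavalent chromium, Cr(VI). The group holds 39 genes chosen by symbol, of the 23403 genes in the count table: 16 subunits of SWI/SNF complexes, 6 genes of ISWI complexes, 8 CHD genes, 5 genes of the INO80 and SWR1 complexes and 4 further genes of the SNF2 family. Of these, 38 had a row in the count table, 37 had enough reads to be tested, and all 39 were searched for peaks of open chromatin. The cells were Hepa-1c1c7, an established line derived from a mouse liver tumor, so every library comes from that 1 line. RNA-seq was done on 2 libraries of cells given 25 µM Cr(VI) for 90 minutes, as the chromate that the labels write CrK2O4, and on 2 control libraries, whose labels do not say which exposure regimen they accompanied. FAIRE-seq, which sequences the DNA that stays free of crosslinked protein and so marks open chromatin, was done on 1 library of cells at 25 µM for 90 minutes, 1 library of cells kept at 0.5 µM for 20 passages, and 1 control library for each. The RNA of cells kept at 0.5 µM was not analysed here.

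Chromatin remodelers use the energy of ATP to slide, eject, space or exchange nucleosomes, and every complex is built around an ATPase of the SNF2 family. SWI/SNF complexes open chromatin at promoters and enhancers and come in forms that hold either ARID1A or ARID1B, or, in the polybromo form, ARID2 and PBRM1 with BRD7. ISWI enzymes space nucleosomes, CHD proteins include the motor of the NuRD deacetylase complex, and INO80 and SWR1 remodelers move or install the histone variant H2A.Z.

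The RNA-seq libraries held between 32319676 and 37696116 counts, and their TMM factors, which scale libraries to one another, ran from 0.897 in treated replicate 2 to 1.04 in control replicate 1. The treated replicates were less alike than the controls, with a chi-square per gene of 124 in the treated pair against 2.15 in the control pair, where sampling noise alone gives about 1. The labels do not say whether replicates were separate cultures, so the p-values measure the spread between these libraries. A list of 10 hepatocyte and hepatoma markers summed to between 4409 and 4523 CPM (counts scaled to a common library size) in the controls. In the treated libraries the sum was between 7685 and 7831. Alb, Apob and Ttr were called higher, and Alb alone read 905 and 948 CPM scaled by TMM in the controls and 3667 and 3550 after treatment. Afp, Trf, Hnf4a, Foxa2, Krt8 and Krt18 were not called, with log2 fold changes from 0.03 for Afp to 0.97 for Hnf4a. Apoa1 had too few reads to be tested. Hnf4a and Ttr stayed at or under 1.97 CPM in every library. The 5 fibroblast markers summed to between 684 and 690 in the controls and to between 1231 and 1242 after treatment, where Dcn rose (log2 fold change 1.16) and Col1a1, Col3a1 and Pdgfra, at 0.54, -0.01 and -0.47, were not called. The 5 leukocyte markers summed to between 60.0 and 60.5 in the controls and between 43.4 and 53.8 after treatment, with Cd3e at 0. Most of this was Csf1r, at 50.1 and 49.6 CPM scaled by TMM in the controls and 37.0 and 37.9 after treatment. On the same scale Cd68 read 7.77 and 8.29 in the controls and 5.08 and 22.1 after treatment. Neither Csf1r nor Cd68 was called. The 5 endothelial markers summed to between 0.961 and 1.11 in the controls and between 2.32 and 2.55 after treatment, where Pecam1 rose (log2 fold change 2.03) and Cdh5 was at 0. Whether these shifts had a part in the results was not tested. In RNA from whole cultures, less RNA per cell and fewer cells with a transcript cannot be told apart.

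In control cells the level of remodeler transcripts, given as CPM per kilobase of transcript (RPKM), spanned from 0.131 for Chd7 to 69.1 for Ruvbl2, with a median of 10.9 over the 37 tested genes. Ruvbl2, which codes for an AAA+ ATPase shared by INO80, SWR1 and other complexes, read 67.6 and 70.5 RPKM in the control libraries. It was followed by Chd4, the ATPase of NuRD, at 58.6 and 58.1 RPKM, and by Smarce1, a DNA-binding SWI/SNF subunit, at 55.2 and 54.7 RPKM. At the other end stood Chd6 at 2.62 and 2.57 RPKM, Chd9 at 1.68 and 1.55 RPKM and Chd7 at 0.125 and 0.138 RPKM, all of the CHD6 to CHD9 subfamily. Along this order, 9 of the 36 neighboring pairs had control ranges that overlapped. Of the ATPases, Smarca4 (BRG1) stood at 27.2 and 26.5 RPKM and its alternative Smarca2 (BRM) at 4.66 and 4.52 RPKM, so BRG1 was the more abundant motor transcript of SWI/SNF. The ISWI ATPase Smarca5 (SNF2H) read 44.5 and 42.4 RPKM, while its relative Smarca1 (SNF2L) had 0 counts in all 4 libraries, which allows at most 0.0928 CPM in the shallowest of them for counting error alone. Srcap, the SWR1 ATPase, has no row in the table used, and its RNA was not analysed here.

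**Figure D1:**
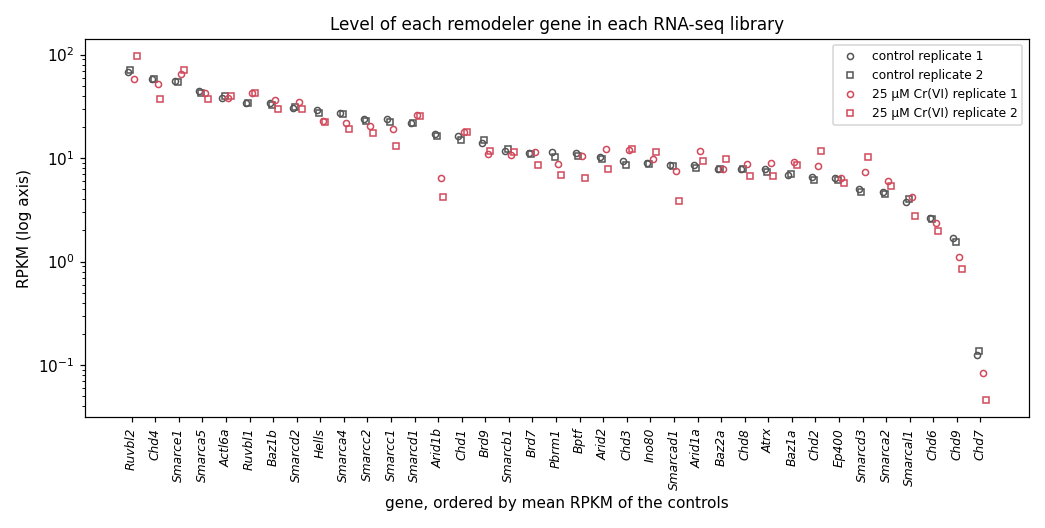
RPKM of the 37 tested remodeler genes (log axis) in each of the 4 RNA-seq libraries, genes ordered by their control mean from 69.1 for Ruvbl2 to 0.131 for Chd7. Circles and squares are replicates 1 and 2, gray for control and red for 25 µM Cr(VI). The treated points of Arid1b, at 6.36 and 4.18, lie far below its control points at 16.9 and 16.4.

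After acute Cr(VI) the estimates of most remodeler genes lay within 2-fold of control, as did those of most tested genes. Only 1 of them, Arid1b, was called, and it was lower. By edgeR's quasi-likelihood test with Benjamini-Hochberg adjustment over all 13619 tested genes, 1 of 37 remodeler genes passed an adjusted p of 0.05, a share of 2.70% beside 4.63% of all genes. None was called higher, where 1.78% of all genes were, and 1 was called lower, where 2.85% of all genes were. At an unadjusted p of 0.05 there were 12 of 37, with 6 higher and 6 lower, a share of 32.4% beside 30.7% of all genes. The treated and control libraries did not overlap for 27 of 37, with 12 higher and 15 lower, a share of 73.0% beside 66.3% of all genes. By each of these counts the remodeler genes stood near the background. Their median log2 fold change was -0.024 beside -0.0047 over all genes, and the estimate lay within 2-fold for 35 of 37, beside 85.6% of all genes. Exons of 12 of the 39 genes are shared in part with another annotated gene, Smarca2 (187 bases with Gm52395) among them, and reads there could belong to either. For 29 of 37 the whole 95% confidence interval lay within 2-fold.

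The count of calls rested on the spread between the treated libraries. Without treated replicate 1 there were 33 called of 37, beside 77.6% of all genes, and without treated replicate 2 there were 28, beside 67.2%, because the spread was then taken from the control pair alone and the lone treated library was assumed to vary like the controls. Relative to the control mean, the median remodeler gene stood at a log2 difference of 0.029 in treated replicate 1 and -0.17 in treated replicate 2. Of the 37, 27 were lower in the second than in the first, beside 50.6% of all genes. For genes with a genomic span above 100 kb this was 12 of 14 remodeler genes, beside 66.5% of all such genes. Up to 100 kb it was 15 of 23, beside 48.7%. With library size as the sole scaling no remodeler gene was called, beside 3.35% of all genes. The adjusted p of Arid1b by the quasi-likelihood test was then 0.0619, the highest over its 9 alternatives. The median log2 fold change of all genes moved to -0.11.

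**Figure D2:**
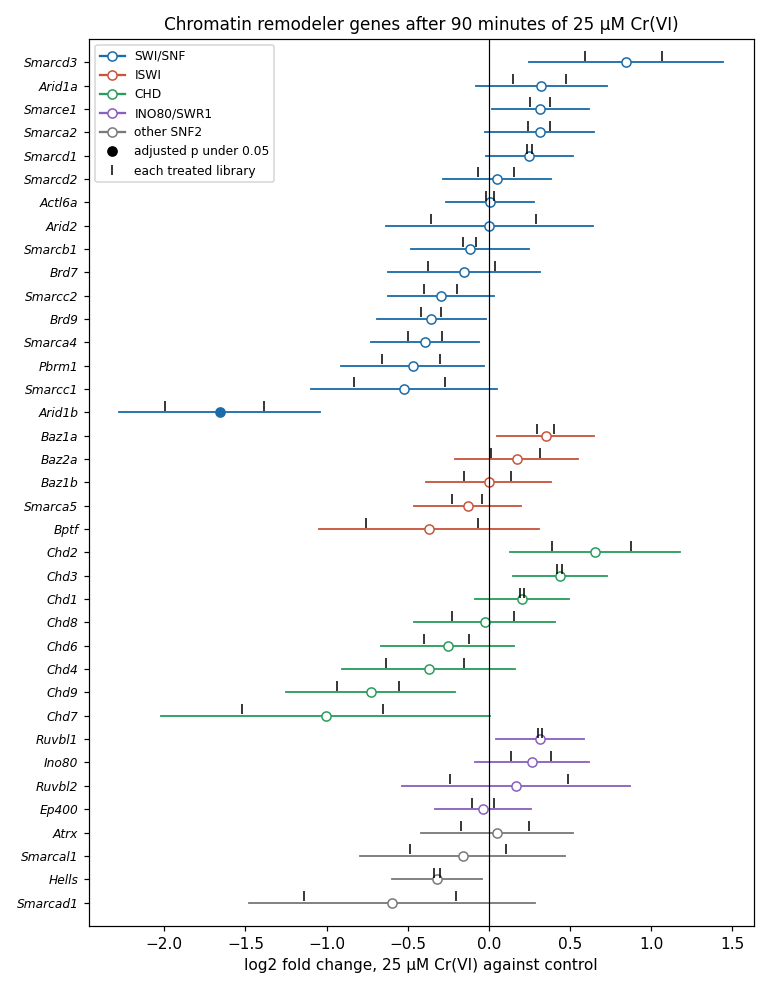
Log2 fold change of the 37 tested genes after 25 µM Cr(VI) for 90 minutes against control, with 95% confidence intervals as lines, colored by family and ordered within it. Ticks give each treated library against the control mean. The filled point is Arid1b at -1.66, the only one of these genes with an adjusted p under 0.05, and Smarcd3 at 0.85 is the highest estimate.

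The SWI/SNF gene that passed the test was Arid1b, which codes for a large DNA-binding subunit found in the BAF form of the complex. Arid1b (GeneID 239985, mm10 chr17:4994297-5347656, plus strand) read 192 and 185 CPM in the controls and 72.0 and 47.3 after 25 µM Cr(VI). Both treated libraries lay below both controls, and the gap was wider than the spread within either group. Arid1b fell by 1.66 on the log2 scale (SE 0.231, n = 2 per group, adjusted p = 0.0419 by edgeR's quasi-likelihood test), which is 3.16-fold with a 95% confidence interval of 2.06 to 4.85. No annotated exon of another gene overlaps an exon of Arid1b.

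Its paralog Arid1a (mm10 chr4:133679008-133756769, minus strand) was not called. Arid1a read 73.9 and 69.1 CPM in the controls and 99.5 and 79.4 after treatment, a log2 fold change of 0.32 (SE 0.151, adjusted p = 0.226). Both treated libraries were above both controls, but the treated libraries were further from each other than the lower of them was from the controls. Within each library the RPKM of Arid1a was 0.510 and 0.494 times that of Arid1b in the controls and 1.83 and 2.22 times in the treated cells, so the order of the paralogs was inverted. On the log2 scale the ratio averaged -0.99 ± 0.034 (SD, n = 2) in control and 1.01 ± 0.198 in treated libraries, a shift of 2.01 that does not depend on how libraries are scaled to each other. With 2 libraries against 2, the exact permutation test cannot go below p = 0.333, so the ratios are given without a test.

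The ATPase genes of SWI/SNF had estimates of opposite sign, and neither was called. Smarca4 read 176 and 171 CPM in the controls and 142 and 123 after treatment, a log2 fold change of -0.39 (SE 0.124, adjusted p = 0.130). Smarca2 read 27.1 and 26.3 in the controls and 34.7 and 31.6 after treatment, a log2 fold change of 0.31 (SE 0.126, adjusted p = 0.182). For both genes the groups did not overlap. The RPKM of Smarca4 was 5.85 and 5.87 times that of Smarca2 in the controls and 3.68 and 3.50 times in the treated libraries, and this ratio differed between groups by -0.71 on the log2 scale with an SD of 0.052 among treated libraries.

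The largest estimated increase of the 37 genes belonged to Smarcd3, which codes for BAF60C, one of 3 alternative BAF60 core subunits. Smarcd3 read 8.74 and 8.11 CPM in the controls and 12.7 and 17.6 after treatment, a log2 fold change of 0.85 (SE 0.224, adjusted p = 0.0992). Its groups did not overlap, yet the treated libraries were further from each other than the nearer of them was from the controls, and 913 bases of its exons are shared with Chpf2 on the other strand. Its relatives Smarcd1 and Smarcd2 had log2 fold changes of 0.25 and 0.048. Smarcc1, which codes for the scaffold subunit BAF155, read 135 and 127 CPM in the controls and 109 and 73.7 after treatment, a log2 fold change of -0.52 (SE 0.214, adjusted p = 0.188). The treated libraries of Smarcc1 were both lower than the controls but differed from one another by more than the nearer of them differed from the controls. The other scaffold gene, Smarcc2, gave -0.29, and the ratio of the 2 scaffold transcripts differed between groups by -0.25 on the log2 scale, about the size of its SD of 0.251 among treated libraries.

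The remaining SWI/SNF genes lay between -0.47 and 0.32 on the log2 fold change scale. Of all 16, 8 were above 0 and 8 below, the median was -0.058, 12 (75.0%) had groups that did not overlap, beside 66.3% of all genes, and 1 (6.25%) was called, beside 4.63%. The subunits particular to the polybromo form, Pbrm1, Arid2 and Brd7, gave log2 fold changes of -0.47, 0.0036 and -0.15, and Brd9, of the non-canonical form, gave -0.36. For Arid2 the treated replicates lay on opposite sides of the controls, at 110 and 70.3 CPM against 92.2 and 87.8. These genes were picked out after their values were seen, as parts of named forms of the complex.

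**Figure D3:**
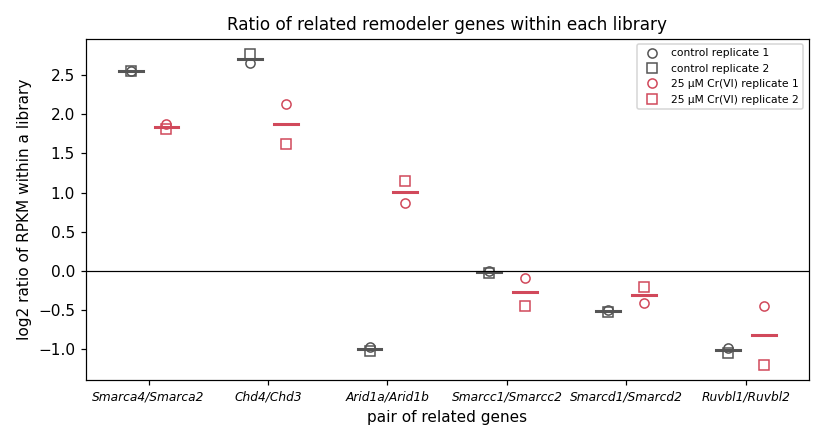
Log2 ratio of RPKM between 6 pairs of related genes within each library, gray for control and red for 25 µM Cr(VI), with replicates 1 and 2 as circles and squares and group means as bars. Arid1a/Arid1b averaged -0.99 in control and 1.01 in treated libraries, Smarca4/Smarca2 2.55 and 1.84, and Chd4/Chd3 2.71 and 1.88, while the treated replicates of Ruvbl1/Ruvbl2 fell on either side of the controls.

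None of the 5 tested ISWI genes was called, beside 4.63% of all genes, and their median log2 fold change was -0.0008. The ATPase Smarca5 read 206 and 197 CPM in the controls and 196 and 172 after treatment, a log2 fold change of -0.13 (SE 0.124, adjusted p = 0.512) with a 95% confidence interval from -0.46 to 0.20. Baz1a, which codes for the ACF1 partner of SNF2H, read 42.3 and 43.6 in the controls and 56.8 and 52.8 after treatment, a log2 fold change of 0.35 (SE 0.113, adjusted p = 0.132). The treated libraries of Baz1a were both higher than the controls by more than either group's own spread. The other 3 genes, Baz2a, Baz1b and the NURF subunit gene Bptf, ranged from -0.37 to 0.17.

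The CHD genes held both positive and negative estimates, and none of the 8 was called, beside 4.63% of all genes. Chd2, a chromodomain ATPase linked to active chromatin, read 60.1 and 55.3 CPM in the controls and 75.6 and 106 after treatment, a log2 fold change of 0.65 (SE 0.196, adjusted p = 0.121). Both treated libraries of Chd2 were above the controls but far from each other, and 634 bases of its exons are shared with the non-coding gene Chaserr on the same strand. Chd3 read 68.1 and 62.3 in the controls and 87.2 and 89.2 after treatment, a log2 fold change of 0.44 (SE 0.109, adjusted p = 0.0917), the lowest adjusted p of the 37 genes after that of Arid1b.

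Its NuRD counterpart Chd4 had an estimate of the other sign. Chd4 read 392 and 389 CPM in the controls and 352 and 252 after treatment, a log2 fold change of -0.37 (SE 0.200, adjusted p = 0.276), and the treated libraries differed from one another by more than the first of them differed from the controls. The RPKM of Chd4 was 6.27 and 6.79 times that of Chd3 in the controls and 4.39 and 3.07 times in the treated libraries, a difference of -0.83 on the log2 scale with an SD of 0.363 among treated libraries.

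The longest CHD genes, Chd9 and Chd7, had estimates below 0 and were not called. Chd9 read 19.3 and 17.9 CPM in the controls and 12.7 and 9.74 after treatment, a log2 fold change of -0.73 (SE 0.195, adjusted p = 0.102). Chd7, the gene mutated in CHARGE syndrome, was barely expressed, with 49 and 61 counts in the controls and 32 and 15 after treatment, a log2 fold change of -1.01 (SE 0.380, adjusted p = 0.166) whose 95% confidence interval ran from -2.02 to 0.0094. In both genes the treated libraries were below the controls. Chd6 and Chd8 gave -0.25 and -0.024, the latter 0.15 without treated replicate 2, and Chd1 gave 0.20.

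None of the 4 tested INO80 and SWR1 genes was called, beside 4.63% of all genes. Ino80, the ATPase of its complex, read 57.4 and 55.3 CPM in the controls and 62.0 and 73.5 after treatment, a log2 fold change of 0.27 (SE 0.132, adjusted p = 0.247). Both treated values of Ino80 were above the controls and were further from each other than the lower of them was from the controls. The AAA+ pair Ruvbl1 and Ruvbl2, which code for partners in 1 ring-shaped hexamer, gave 0.32 and 0.17, and Ep400, the ATPase of the TIP60 complex, gave -0.036. Ruvbl2 read 98.0 and 162 CPM in the treated libraries, on either side of its controls at 113 and 118, and it shares 290 exon bases with Gys1 on the other strand.

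Of the 4 further SNF2-family genes, none was called, beside 4.63% of all genes, and 3 had estimates below 0. Smarcad1, a remodeler that acts at DNA ends and at replication forks, read 44.7 and 43.9 CPM in the controls and 38.5 and 20.1 after treatment, a log2 fold change of -0.60 (SE 0.330, adjusted p = 0.288). Treated replicate 2 of Smarcad1 was far below the other 3 libraries, and without it the log2 fold change was -0.20. Hells (LSH), which is needed for DNA methylation of repeats, gave -0.32 with treated libraries close together at 69.2 and 67.4 against 87.8 and 82.9. Smarcal1 and Atrx gave -0.16 and 0.052.

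A wider list of 68 other subunits and SNF2-family genes, of which 63 were tested, held 2 calls, a share of 3.17% beside 4.63% of all genes. Their median log2 fold change was 0.085, with 40 above 0 and 23 below. Ss18l1 (CREST, mm10 chr2:180042483-180070201, plus strand), which codes for a calcium-responsive SWI/SNF subunit known from neurons, read 5.09 and 4.42 CPM in the controls and 15.4 and 17.2 after treatment. Both treated libraries stood well above both controls, and Ss18l1 rose 3.42-fold (log2 fold change 1.77, SE 0.182, adjusted p = 0.0317 by edgeR's quasi-likelihood test). Chd1l (ALC1, mm10 chr3:97560740-97610222, minus strand), a remodeler activated by poly(ADP-ribose) at DNA damage, read 26.6 in each control and 13.2 and 11.6 after treatment. The groups were again clearly apart, and Chd1l fell by 1.10 on the log2 scale (SE 0.146, adjusted p = 0.0392 by the same test), while sharing 160 exon bases with Fmo5 on the other strand. Without control replicate 1 or control replicate 2 no gene of this list was called, beside 2.07% and 2.02% of all genes, and without treated replicate 1 or 2 there were 48 and 41, beside 77.6% and 67.2% of all genes. With library size as the sole scaling Chd1l was not called (adjusted p = 0.0604), and over its 9 alternatives the adjusted p reached 0.242.

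Remodeler genes are long, with a median genomic span of 67.6 kb in this group beside 21.1 kb over the tested genes, and long genes as a whole were lower in treated cells. Over the 1504 tested genes with a span above 100 kb the median log2 fold change was -0.32 and 7.85% were called, while over the 12064 shorter ones the median was 0.026 and 4.23% were called. The 14 remodeler genes above 100 kb had a median of -0.099, with 6 above 0, 8 below and 1 called, and the 23 shorter ones had a median of -0.0008. The median of the 14 was -0.37 without treated replicate 1 and 0.065 without treated replicate 2. Taken library by library against the control mean, it was 0.067 in treated replicate 1 and -0.38 in treated replicate 2, where all long genes had medians of -0.23 and -0.49. Arid1b, at 353 kb, is the longest of the group. Of the 1504 long genes, 79 (5.25%) had a log2 fold change at or below that of Arid1b, beside 25.3% for Chd9 and 14.6% for Chd7. As a description, Spearman's rho between span and log2 fold change was -0.30 over the 37 remodeler genes, -0.24 without Arid1b and -0.19 over 13568 genes, all taken from the same 4 libraries. What part span had in the decrease of Arid1b was not tested. The comparison by span was chosen after the data were seen.

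**Figure D4:**
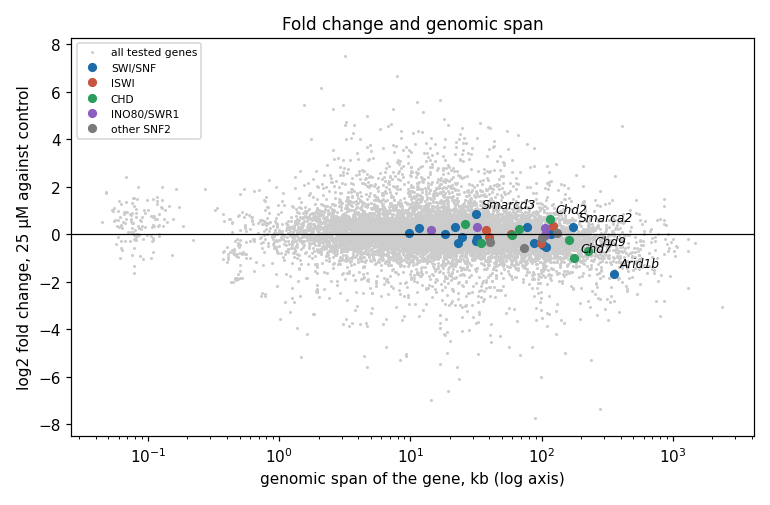
Log2 fold change after 25 µM Cr(VI) against the genomic span of each gene (log axis, kb), with remodeler genes colored by family over all tested genes in gray. Arid1b, at 353 kb and -1.66, lies at the lower right, while Chd2 and Smarca2, both also above 100 kb, lie above 0 at 0.65 and 0.31.

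FAIRE peaks that were higher in treated cells than in their control fell within 6 remodeler genes at 25 µM and within 2 at 0.5 µM. A peak counted for a gene where it shared at least 1 base with the gene's span or with the 1000 bases before its 5′ end, and with 1 library per condition there is no replicate check. The list for 25 µM held 2945 peaks, and 6 of 39 remodeler genes had 1, a share of 15.4% beside 6.49% of 21774 protein-coding genes. The list for 0.5 µM held 860 peaks, and 2 of 39 had 1, a share of 5.13% beside 2.18%. Arid1b and Pbrm1 had a peak in both lists, at different positions, where 0.404% of protein-coding genes had a peak in both. That share is over genes of any span, while Arid1b and Pbrm1 each span more than 100 kb. Within 1000 bases of a start site there was a peak of either list in 0 of 39, which is near the background, since 0.721% of protein-coding genes had one at 25 µM and 0.753% at 0.5 µM. Because long genes have more room for a peak, the shares of each list were also set against genes of like span. The share with a peak in both lists was not. Above 100 kb, 4 of 14 remodeler genes had a peak of the 25 µM list beside 23.8% of genes, and 2 of 14 had one of the 0.5 µM list beside 7.01%. Up to 100 kb the counts were 2 of 25 beside 4.32% and 0 of 25 beside 1.57%. Per megabase of gene the density was 1.86 peaks in remodeler genes beside 1.48 in all for 25 µM, and 0.619 beside 0.459 for 0.5 µM.

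Of the 6 genes with a peak at 25 µM, 5 code for SWI/SNF subunits, of 16 such genes, and the remaining one is Chd2. Of all protein-coding genes 6.49% had such a peak, and no share matched for span was computed for this family. Arid1b, Smarcc1 and Pbrm1 span more than 100 kb, where 23.8% of genes had one. Arid1a and Brd7 are shorter, where 4.32% of genes had one. The highest score, a log-scaled p-value that is larger for a smaller p, was 74.1 for a peak in an intron of Smarcc1 at chr9:110208454-110208558, where the median over the list was 57.2. Peaks in an intron of Brd7 (chr8:88340299-88340428) and of Chd2 (chr7:73503722-73503831) scored 55.2 and 56.5. The peaks of the ARID and polybromo genes are printed here because Arid1b is the gene that fell, Arid1a is its paralog, and Arid1b and Pbrm1 are those found at both doses. Letters are the plus strand of mm10, 5′ to 3′, as in the RefSeq GRCm38.p6 assembly, and capitals mark the AP-1 site TGACTCA or its reverse complement TGAGTCA, which was searched on both strands.
Arid1a, 25 µM, chr4:133688403-133688612: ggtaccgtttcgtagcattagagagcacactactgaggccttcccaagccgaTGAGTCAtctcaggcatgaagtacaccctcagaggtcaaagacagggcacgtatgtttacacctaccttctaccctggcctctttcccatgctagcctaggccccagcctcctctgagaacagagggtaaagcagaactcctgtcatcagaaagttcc
Arid1b, 25 µM, chr17:5001946-5002139: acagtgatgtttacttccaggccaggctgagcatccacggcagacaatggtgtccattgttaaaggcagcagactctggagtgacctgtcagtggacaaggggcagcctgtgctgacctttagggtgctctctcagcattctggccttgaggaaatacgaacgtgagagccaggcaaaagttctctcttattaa
Arid1b, 0.5 µM, chr17:5324694-5324993, the middle 300 bases of the peak: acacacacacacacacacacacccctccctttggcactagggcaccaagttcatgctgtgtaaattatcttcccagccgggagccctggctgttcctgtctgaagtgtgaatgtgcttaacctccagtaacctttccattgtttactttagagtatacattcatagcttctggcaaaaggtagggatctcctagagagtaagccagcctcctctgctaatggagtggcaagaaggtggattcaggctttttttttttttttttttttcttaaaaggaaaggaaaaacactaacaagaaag
Pbrm1, 25 µM, chr14:31074946-31075067: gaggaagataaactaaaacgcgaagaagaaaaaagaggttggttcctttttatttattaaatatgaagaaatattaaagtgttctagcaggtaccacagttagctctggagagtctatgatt
Pbrm1, 0.5 µM, chr14:31088643-31088942, the middle 300 bases of the peak: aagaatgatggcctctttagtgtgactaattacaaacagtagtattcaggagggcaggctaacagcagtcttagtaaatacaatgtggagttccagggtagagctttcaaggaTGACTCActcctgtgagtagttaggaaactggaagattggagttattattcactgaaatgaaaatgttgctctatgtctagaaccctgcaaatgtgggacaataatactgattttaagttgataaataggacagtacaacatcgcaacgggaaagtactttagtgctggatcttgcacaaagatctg

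The Arid1b peak at 25 µM scored 58.0 and lay 6968 bases downstream of the nearest curated start site, in an intron of the curated transcript that a predicted model annotates as exon. The Arid1b peak at 0.5 µM (chr17:5324475-5325211) scored 50.8, near the other end of the gene, in an intron 329769 bases from the nearest start site. In Pbrm1 the 25 µM peak overlapped an exon and scored 56.8, and the 0.5 µM peak (chr14:31088493-31089092) lay in an intron that also falls within Smim4 and scored 66.7. Repeat-masked bases made up 55.7% of the 25 µM peak of Pbrm1 and 37.3% of that of Chd2, beside a median of 5.83% over that list. In the other remodeler genes with a 25 µM peak they ran from 0% in Smarcc1 and Arid1a to 19.2% in Brd7. The Arid1a peak, in an intron, scored 64.7.

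An AP-1 sequence was present in the Arid1a peak and in the Pbrm1 peak of the 0.5 µM list, so 1 of 6 and 1 of 2 peaks in remodeler genes held it, beside 12.0% and 22.8% of all peaks of the respective lists. The CTCF core consensus searched was in none of them, beside 2.31% and 1.51% of the lists. The peaks differed in base composition, from 22.7% G and C in Chd2 to 52.4% in Arid1a. Just outside the limit, a peak scoring 69.7 lay 1762 bases upstream of Arid2 and overlapped another gene, Gm38469. A peak scoring 52.9 lay 1978 bases upstream of Srcap in sequence that is 97.5% repeat-masked, and it held an AP-1 sequence. One scoring 51.7 lay 2781 bases downstream of Actl6a and overlapped Mrpl47. Of the wider list of 68, 4 genes (5.88%) had a peak at 25 µM, near the 6.49% of protein-coding genes, and 0 had one at 0.5 µM, beside 2.18%. Ss18l1, named as a called gene, was among the 4, with an intronic peak at chr2:180050118-180050207 scoring 78.6.

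Genes with a 25 µM peak had log2 fold changes of either sign. Over the 6 of them the median was -0.31, with 4 below 0 and 2 above. Over the 31 tested remodeler genes without one it was -0.0008, with 16 below 0 and 15 above. Of the 6, Arid1b, Smarcc1, Pbrm1 and Chd2 span more than 100 kb, and all tested genes of such span had a median of -0.32. What part span had in this difference was not tested. Arid1b at -1.66, Smarcc1 at -0.52, Pbrm1 at -0.47 and Brd7 at -0.15 were below 0, and Chd2 at 0.65 and Arid1a at 0.32 were above.

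**Figure D5:**
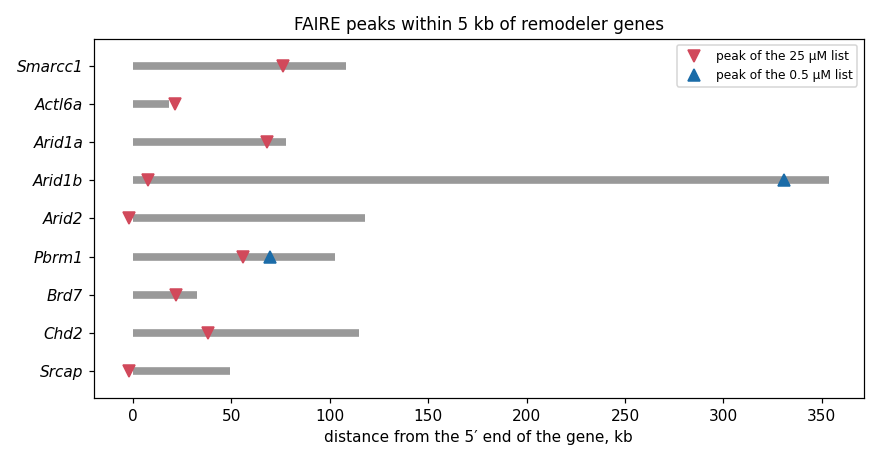
Position of FAIRE peaks within 5000 bases of remodeler genes, as distance from the 5′ end of each gene in kb, with gray bars for gene spans. Red triangles are peaks of the 25 µM list and blue triangles those of the 0.5 µM list. Arid1b and Pbrm1 carry a peak of each, while the peaks of Arid2, Srcap and Actl6a lie outside the gene and beyond the limit used for the counts.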

How the data were processed

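RNA-seq of 4 libraries and FAIRE-seq of 4 libraries (1 per condition) of Hepa-1c1c7 cells were used. The authors aligned RNA reads to mm10 with TopHat and deposited raw counts per Entrez gene, without normalization. The counting tool, its annotation and its use of strand are not given in the sources used here, so reads of overlapping genes cannot be told apart. The authors aligned FAIRE reads with BWA and called peaks with MACS at default settings, treated against control, 1 library each, and the deposited score is a log-scaled p-value, larger for a smaller p. The submitters' processing notes also name CASAVA 1.8, bcl2fastq and DESeq.

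From the counts, edgeR 4.0.16 in R 4.3.3 was run with TMM factors, filterByExpr and the two-sided quasi-likelihood test, with Benjamini-Hochberg adjustment over 13619 genes and a threshold of 0.05. CPM of single genes uses the TMM-scaled library sizes, while the sums over marker lists use the total counts without TMM factors. RPKM divides the CPM of a gene by the length of its longest curated RefSeq transcript. Totals of 32319676 to 37696116 counts per library leave spread between replicates as the main error, except for Chd7. Confidence intervals come from the quasi-likelihood test and so carry the spread between libraries. The floor of 3 counts for a value of 0 covers counting error only. DESeq2 1.42.0, other scalings, no filter, a replicate block and each library left out were alternatives. Gene spans, start sites and sequences came from RefSeq GRCm38.p6 (mm10), and peak starts were shifted to count from 1. The scripts were tested on simulated data.

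Values in each library are given for genes with an adjusted p under 0.05, the 5 largest estimates in each direction and the ATPases Smarca4, Smarca2, Smarca5, Chd4 and Ino80, as well as genes with a peak within 1000 bases of a start site, of which there were none, and genes of the wider list are named if called. Library values of Arid2, Ruvbl2 and Hells, and the levels at the ends of the control order, were added after they were seen. The genes and lists were chosen with earlier results of these data known.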

Additional observations from a re-analysis of the deposited data

How the results depend on the processing

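Of 351 log2 fold changes of single genes recomputed under the alternatives, 263 kept their direction and their side of the threshold, 59 newly passed it, 6 no longer passed it and 23 changed sign. The number of remodeler genes called, 1 in the report, was 5 with a replicate block (Smarcc1, Smarcd3, Arid1b, Chd2 and Smarcad1, beside 21.8% of all genes), 0 with library size alone, 2 with DESeq2 (Smarcd3 and Arid1b, beside 14.2%), 3 at an adjusted p under 0.1, and from 1 to 33 with 1 library left out. The wider list, 2 in the report, gave 6 with the replicate block, 1 with library size alone, 7 with DESeq2, and from 0 to 48 with 1 library left out. Of all genes 3.35% were called with library size alone, 21.8% with the replicate block and 14.2% with DESeq2, shares that stand beside both lists. No share of all genes was computed at an adjusted p under 0.1. Without a treated library the spread comes from the controls alone. For the other changes in these counts the cause was not tested. Treated and control libraries of a replicate share its number and have consecutive sample names, but the labels do not say whether they were handled together. Across genes, the difference between replicates 1 and 2 in the treated group correlated at 0.118 with that in the controls. The sign changes were all in genes with a log2 fold change between -0.16 and 0.17 in the report. With library size alone Smarcd2, Actl6a, Arid2 and Atrx came to -0.056, -0.11, -0.087 and -0.046, and with the replicate block Arid2 came to -0.032. With no filter Actl6a and Arid2 came to -0.022 and -0.020, with DESeq2 Arid2 came to -0.0030, and with DESeq2 size factors Baz1b came to 0.015. With 1 library left out, the values of the genes that changed sign ran from -0.060 to 0.16 for Smarcd2, -0.036 to 0.041 for Actl6a, -0.35 to 0.29 for Arid2, -0.36 to 0.035 for Brd7, -0.14 to 0.13 for Baz1b, -0.22 to 0.15 for Chd8, -0.094 to 0.028 for Ep400, -0.24 to 0.50 for Ruvbl2, -0.48 to 0.10 for Smarcal1 and -0.16 to 0.24 for Atrx. The Arid1a/Arid1b shift ranged from 1.87 to 2.15 with 1 library left out, while that of Ruvbl1/Ruvbl2 ranged from -0.18 to 0.57. A score of at least 100 left 0 remodeler genes with a peak in the 25 µM list and 0 in the 0.5 µM list, and 5000 bases on either side gave 9 and 2. The median scores of the whole lists were 57.2 and 57.8. The share of all genes with a peak was not computed under either setting, so these counts have no background. With 2 libraries a group and 1 FAIRE library a condition, whether a remodeler gene with an estimate within 2-fold was called depended on the test (0 of 35 in the report, 4 with the replicate block), and peaks have no replicate error.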
